A study of Homo sapiens with 18 samples.

Results

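The genes described here are 38 established transcriptional targets of the tumour suppressor p53, taken by name from a deposited table of 23571 named genes in SW48 cells, an established human colon adenocarcinoma line. All 38 were found, 1 of them (TIGAR) under its older symbol C12orf5, and all 38 passed the filter on low values (1 FPKM or more in at least 3 of 18 libraries; FPKM divides the fragments of a gene by its transcript length and by the mapped total of the library). EDA2R and TNFRSF10C passed it only through the groups in which they are high, and 35 members were at 1 FPKM or more in every library. The members were grouped by role as 7 genes of cell cycle and growth arrest, 3 of feedback on p53, 9 of apoptosis inside the cell, 6 death receptors and decoys, 4 of DNA repair and nucleotide supply, and 9 of metabolism, redox control and secretion.

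The 18 libraries came from 6 groups of 3. In siCHD4 plus siDNMT1, siRNA against the maintenance DNA methyltransferase DNMT1 was given on days 1, 3 and 5 and siRNA against CHD4, a chromatin-remodelling ATPase of the NuRD complex, on days 7 and 8, before RNA was collected on day 11. Control siRNA plus siDNMT1 followed the same days with a negative control siRNA in place of siCHD4. In siCHD4 plus decitabine, 50 nM decitabine, a nucleoside that cells incorporate during replication and that depletes DNA methyltransferases by trapping them, was given on days 1, 2 and 3 and siCHD4 on days 1 and 2, before RNA was collected on day 5. Control siRNA plus decitabine followed those days with the control siRNA. In siCHD4 alone and control siRNA alone, cells received the siRNA on days 1, 3 and 6 and were harvested for RNA on day 8. Each siCHD4 comparison was therefore made within a single schedule, whereas siDNMT1 and decitabine differed in days from control siRNA alone and from each other, so that treatment and schedule cannot be told apart there. The labels leave it unstated if a group holds separate cultures, and p-values therefore reflect nothing but the spread among these libraries.

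p53 is a sequence-specific transcription factor that is held at low protein levels by MDM2, a ubiquitin ligase that p53 itself induces, and by the MDM2 relative MDM4. DNA damage, replication stress and stalled ribosome assembly release p53 from this control. Its targets then halt the cell cycle, repair DNA, adjust metabolism or bring about cell death, and several of them feed back on p53. In colon epithelium the best known readout is CDKN1A (p21), which stops proliferating cells of the crypt.

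p53 binds a DNA element of 2 half-sites of 10 bases, each with 3 purines, a 4-base core that starts with C, holds A or T at both middle positions and ends with G, and 3 pyrimidines. Windows of 2500 bases on each side of the annotated start were searched in GRCh37 for adjoining half-sites with both cores intact and at most 2 mismatches elsewhere, which gives the same matches on either strand. FAS had no annotated canonical transcript and was left out. Of the 37 members searched, 13 (35.1%) held at least 1 such site, against 247 of 10901 windows (2.27%) of all tested genes with such a transcript. Many members are known as p53 targets because of such sites, so this share describes how the genes came to be named and is no test, and a window without a match says nothing about binding. The sites are printed 5′ to 3′ on the strand of the gene, with the 2 cores in capitals, for the 11 members with a match whose values are given below and whose sequence can be shown; TNFRSF10B and RRM2B also held a site each, in an intron.
CDKN1A, chr6:36644226-36644245 (+), upstream: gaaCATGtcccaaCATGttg
BTG2, chr1:203272770-203272789 (+), upstream: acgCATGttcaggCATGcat
CCNG1, chr5:162864932-162864951 (+), intron: gcaCAAGcccaggCTAGtcc
CCNG1, chr5:162866952-162866971 (+), intron: gacCTAGtcaagaCTTGctt
GADD45A, chr1:68152458-68152477 (+), intron: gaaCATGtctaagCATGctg
PLK2, chr5:57758101-57758120 (-), upstream: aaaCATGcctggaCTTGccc
ZMAT3, chr3:178787976-178787995 (-), intron: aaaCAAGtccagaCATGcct
PMAIP1, chr18:57566781-57566800 (+), upstream: gggCTTGtttaccCAAGtct
AEN, chr15:89164537-89164556 (+), upstream: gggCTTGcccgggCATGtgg
EDA2R, chrX:65858405-65858424 (-), intron: gggCAAGtcagggCTTGtgt
SPATA18, chr4:52918123-52918142 (+), intron: ggaCATGtgtgtaCATGccc
GDF15, chr19:18496118-18496137 (+), upstream: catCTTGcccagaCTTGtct
The sites of PLK2 and ZMAT3 had 0 mismatches, 1 of the CCNG1 sites and the GADD45A site had 1, and the others shown had 2. Upstream and intron refer to 1 annotated canonical transcript per gene. The GDF15 site lies inside the wider annotated span of its gene, and the CDKN1A site overlaps the start of such a span. Relative to the start of the canonical transcript, the CDKN1A site was centred at position -2256 and the AEN site at position -25.

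In the libraries as a whole, siCHD4 lowered CHD4 to 28.4 ± 1.12 FPKM with siDNMT1, against 68.2 ± 5.19 FPKM in its control (mean ± SD, n = 3 in each group here and below; log2 change -1.24, SE 0.14, adjusted p = 7.64e-06). It lowered CHD4 to 31.3 ± 7.87 FPKM given alone, against 62.8 ± 4.78 FPKM with control siRNA (log2 change -1.01, SE 0.14, adjusted p = 0.000201). With decitabine CHD4 was at 54.9 ± 2.06 FPKM after siCHD4 and 76.2 ± 8.17 FPKM after control siRNA, which did not pass the threshold (log2 change -0.46, SE 0.14, adjusted p = 0.0752). DNMT1 was at 12.1 and 12.3 FPKM in the groups given siDNMT1, against 44.7 FPKM with control siRNA alone. Exact two-sided permutation tests of these depletions gave p = 0.1, the smallest that 3 against 3 allows. Of 8 colon epithelial markers, EPCAM, KRT8, KRT18, CDH1 and CDX2 were at 31.1 FPKM or more in all 18 libraries, CDX1 was at most at 0.0417 FPKM, and VIL1 and KRT20 reached 1 FPKM in 15 and 9 libraries. Summed epithelial markers ran from 1010 to 1047 FPKM in siCHD4 plus siDNMT1, against 1784 to 1860 FPKM in control siRNA plus siDNMT1. They ran from 1406 to 1462 FPKM in siCHD4 plus decitabine, against 1863 to 2442 FPKM in its control, and from 1182 to 1345 FPKM in siCHD4, against 1995 to 2106 FPKM in control siRNA. The summed markers of fibroblasts (at most 15.0 FPKM, with COL3A1 at 0 throughout), blood cells (at most 5.63 FPKM, with HBB at 0) and endothelial cells (at most 0.529 FPKM) were low and highest in siCHD4 plus siDNMT1; the part of these marker differences in the results below was not tested. In such bulk libraries fewer cells with a transcript and less of it per cell cannot be told apart. Among the 6 libraries of siRNA alone, residuals after removal of group means correlated across genes at -0.31 between siCHD4 replicate 2 and control siRNA replicate 2. Control siRNA replicate 2 correlated with siCHD4 replicate 0 (0.173) and replicate 1 (0.229). siCHD4 replicate 2 correlated with control siRNA replicate 0 (0.197) and replicate 1 (0.196). The residuals of a group sum to 0 for each gene, so the positive values are tied to the negative one and are no separate evidence. The cause was not tested, and results of siRNA alone are also given without both number 2 libraries. The most frequent log2 ratio of a library to control siRNA replicate 0 among low genes, which rises as the depth of the library falls, was 2.05 in control siRNA plus decitabine replicate 0 and from -0.73 to 0.17 in the others.

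Most of the p53 targets were called higher with decitabine, and none was called lower. Here and below, changes with decitabine or siDNMT1 relative to control siRNA alone include the difference in days, which cannot be told apart from the treatment. With control siRNA plus decitabine 26 of 38 members were called higher and 0 lower relative to control siRNA (limma, adjusted p below 0.05 over 12809 tested genes), against 9.6% of all tested genes called higher and 8.63% lower. Of the 35 members at 1 FPKM or more in every library, 24 were called higher and 0 lower. The median log2 change of all 38 members was 0.51, against -0.02 over all tested genes. The largest changes were those of GDF15, CDKN1A and TP53INP1. Of these 26 calls 18 held with each single library of the compared groups left out, and 12 members were called when only the 6 compared libraries entered the fit. The 12 members not called were CCNG1, GADD45A, PLK2, FBXO22, PMAIP1, PERP, TRIAP1, RPS27L, TNFRSF10A, EDA2R, RRM2B and FUCA1.

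In the fit on all 6 groups fewer p53 targets were called higher with siDNMT1. In fits on the compared groups alone the order turned round, with 19 members higher for siDNMT1 and 12 for decitabine. All tested genes turned round as well, with 1287 higher for siDNMT1 and 552 for decitabine, against 889 and 1230 in the fit on all 6 groups. The members' median log2 changes stayed at 0.30 and 0.51. In control siRNA plus siDNMT1 11 members were higher and 0 lower than in control siRNA, against 6.94% and 4.4% of all tested genes, and the members' median log2 change was 0.30, against -0.01 over all tested genes. Of the 35 members at 1 FPKM or more in every library, 10 were higher and 0 lower. The 11 called among all 38 were CDKN1A, BTG2, TP53INP1, TNFRSF10C, TNFRSF10D, XPC, RRM2B, SESN1, SESN2, TIGAR and ACER2. The number was 7 without control siRNA replicate 0 and 18 without both number 2 libraries, where 639 and 1008 of all tested genes were higher, against 889. Control siRNA plus decitabine was also set against control siRNA plus siDNMT1, a comparison chosen after the data were seen, and 8 members were higher and 0 lower (2.06% and 2.69% of all tested genes): CDKN1A, PLK3, PHLDA3, DDB2, SESN2, FDXR, TP53I3 and GDF15. That number was 2 without control siRNA plus siDNMT1 replicate 0 or 1, 4 without its replicate 2 or without control siRNA plus decitabine replicate 0, and 0 in a fit on the compared groups alone. Of all tested genes 68, 53, 118, 158 and 9 were higher in these settings, in the same order, against 264 in the fit on all 6 groups.

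siCHD4 alone raised 13 members and lowered 2, against 9.58% of all tested genes called higher and 9.71% lower, with a median log2 change of 0.21 in the members and 0.00 over all tested genes. Of the 35 members at 1 FPKM or more in every library, 12 were called higher and 1 lower. Among all 38, those called higher were CDKN1A, BTG2, PMAIP1, TP53INP1, PERP, TNFRSF10B, TNFRSF10D, EDA2R, RRM2B, SESN1, SESN2, TP53I3 and GDF15, and those lower were TNFRSF10A and SPATA18. Without both number 2 libraries the numbers were 14 higher and 2 lower, beside 1075 and 1095 of all tested genes, but the members called differed. TP53INP1 (adjusted p = 0.0716), TNFRSF10B (0.0768), RRM2B (0.153), SESN1 (0.0864) and SPATA18 (0.0702) were then not called, whereas PLK2, PHLDA3, DDB2, POLH and FDXR were called higher and GADD45A lower. The number higher was 8 without control siRNA replicate 0, 7 without control siRNA replicate 1 and 2 (EDA2R and SESN2) in a fit on the 6 compared libraries. Of all tested genes 788, 762 and 272 were higher in these settings, against 1227 in the fit on all 6 groups. The number lower was 1 without siCHD4 replicate 1, control siRNA replicate 0 or control siRNA replicate 2, where 1322, 744 and 1032 of all tested genes were lower, against 1244.

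With siDNMT1 in both groups, siCHD4 raised 11 members and lowered 8, against 24.8% of all tested genes higher and 24.6% lower. These shares of the members (28.9% and 21.1%) were close to those of all tested genes, and the members' median log2 change of 0.05 (against -0.01) showed no common direction. CDKN1A, PLK3, TP53INP1, PERP, TNFRSF10B, TNFRSF10C, TNFRSF10D, EDA2R, SESN2, TP53I3 and GDF15 were higher, and CCNG1, FBXO22, AEN, TRIAP1, RPS27L, TNFRSF10A, DDB2 and SPATA18 were lower. The number lower was 5 without siCHD4 plus siDNMT1 replicate 0 and 4 without its replicate 2 or without control siRNA plus siDNMT1 replicate 0. Of all tested genes 2479, 2486 and 2504 were lower in these settings, against 3148 with every library. With decitabine in both groups, siCHD4 raised 4 members (PERP, TNFRSF10C, EDA2R and RRM2B) and lowered 0, against 3.26% and 1.31% of all tested genes. The decrease of CHD4 itself did not pass the threshold in that background. Its part in the results of siCHD4 beside decitabine, here and below, was not tested. Without siCHD4 plus decitabine replicate 2 the number of members raised was 2, and in a fit on the compared groups alone it was 1. Of all tested genes 296 and 131 were higher in these settings, against 418 in the fit on all 6 groups. EDA2R and TNFRSF10C passed the filter only through the groups in which they are high, so that their calls are given as a description. Among the 35 members at 1 FPKM or more in every library, siCHD4 raised 2 and lowered 0 with decitabine in both groups. With siDNMT1 in both groups it raised 9 of these 35 and lowered 7.

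Against control siRNA alone, siCHD4 plus siDNMT1 had 18 members higher and 7 lower (29.3% and 29.8% of all tested genes), and siCHD4 plus decitabine had 28 higher and 0 lower (18% and 16.9% of all tested genes). Of the 35 members at 1 FPKM or more in every library, 16 were higher and 6 lower in the first and 25 higher and 0 lower in the second. The medians over all 38 members were 0.31 and 0.69. These comparisons share the control siRNA libraries with those above and are not independent of them. By group mean, 20 of the 38 members were highest in siCHD4 plus decitabine, 9 in control siRNA plus decitabine, 6 in siCHD4 plus siDNMT1, 1 in siCHD4, 2 in control siRNA and 0 in control siRNA plus siDNMT1. Control siRNA was the lowest group for 22 members.

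**Figure D1:**
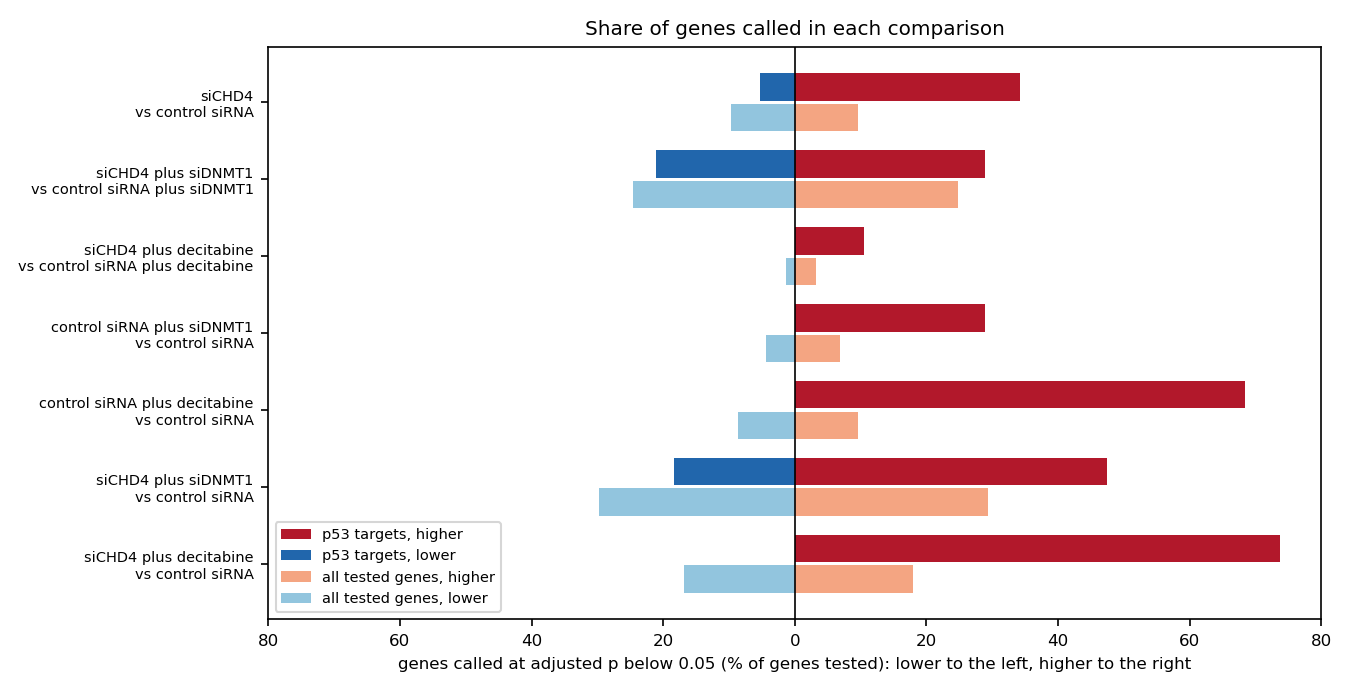
Share of the 38 p53 targets (dark bars) and of all 12809 tested genes (light bars) called higher (to the right) or lower (to the left) in 7 comparisons, in percent of genes tested. The dark bar to the right is longest for both decitabine groups against control siRNA (26 and 28 of 38 members), and no dark bar points left in these. The 38 include EDA2R and TNFRSF10C, which passed the filter only through the groups in which they are high.

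**Figure D2:**
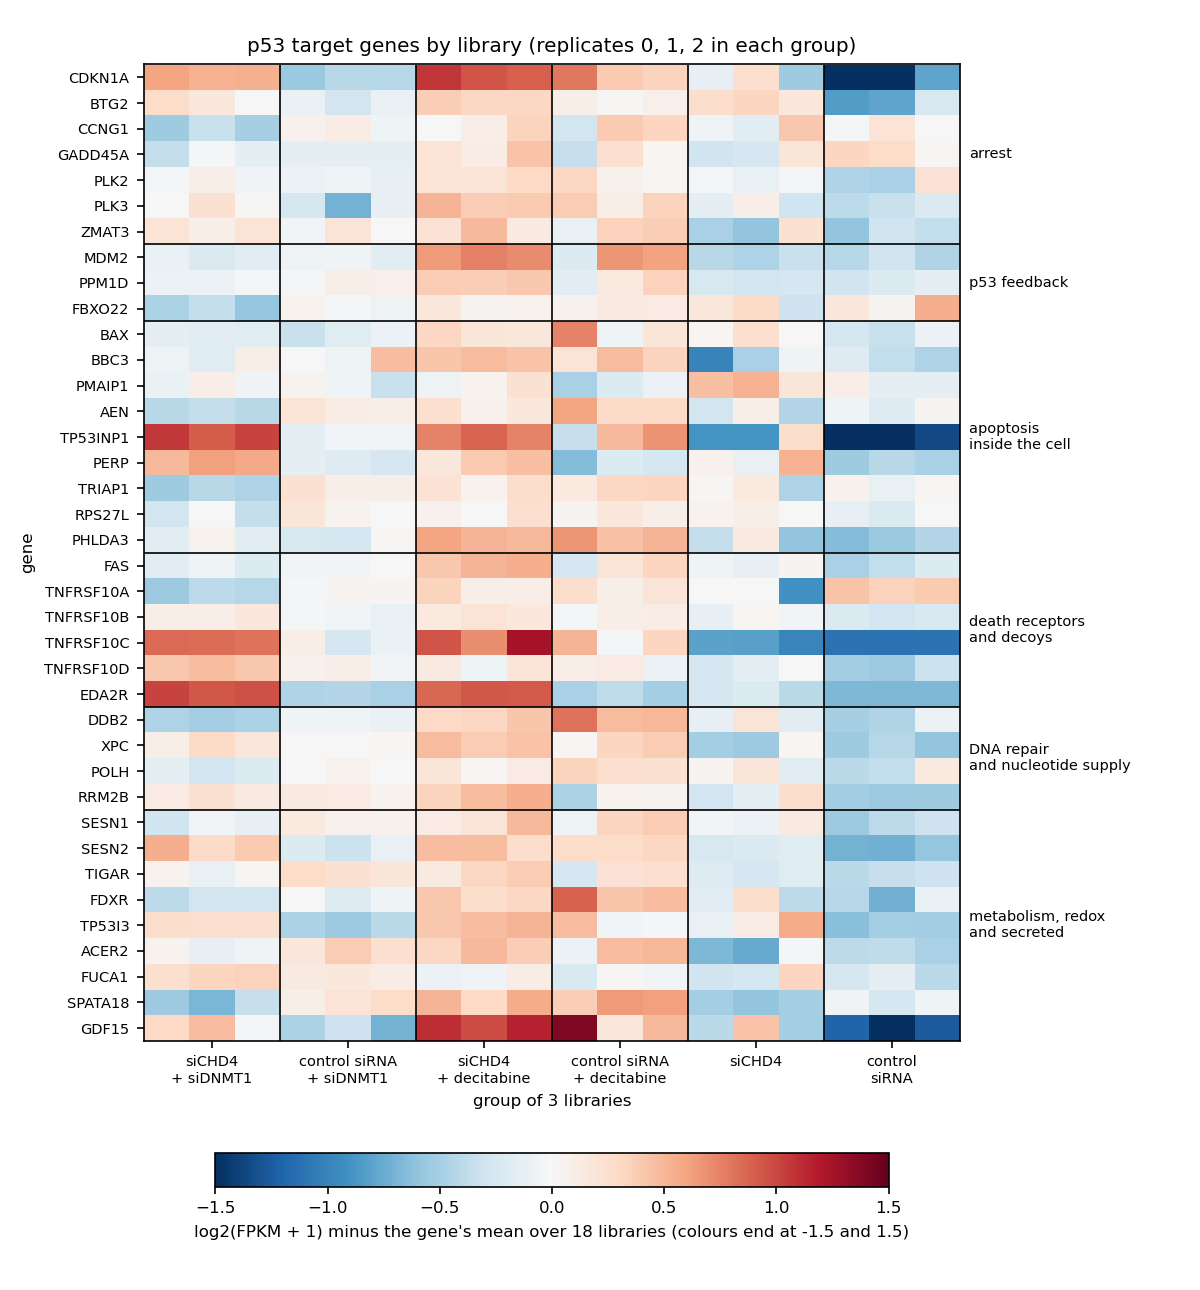
log2(FPKM + 1) of each p53 target in each of the 18 libraries minus the gene's mean over all libraries, with rows grouped by role and columns by group (replicates 0, 1 and 2 from left to right). Both decitabine groups are red in most rows and control siRNA is blue in most rows, while siCHD4 plus siDNMT1 holds both colours.

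Among the arrest genes, CDKN1A, which blocks cyclin-dependent kinases, changed in 4 of the 5 comparisons of a single step (siCHD4 alone, beside siDNMT1 and beside decitabine, and siDNMT1 or decitabine against control siRNA alone). It stood at 90.3, 85.7 and 86.4 FPKM in siCHD4 plus siDNMT1, against 40.2, 44.3 and 43.9 FPKM in control siRNA plus siDNMT1. It stood at 126, 116 and 111 FPKM in siCHD4 plus decitabine, against 103, 78.4 and 75.6 FPKM in control siRNA plus decitabine. With siRNA alone the values were 54.7, 70.95 and 40.9 FPKM after siCHD4, against 18.1, 16.4 and 33.95 FPKM after control siRNA. In all 3 pairs every siCHD4 library lay above every control, and with siRNA alone control siRNA replicate 2 lay closest to the siCHD4 libraries. The siCHD4 change passed the threshold alone (log2 change 1.28, SE 0.22, adjusted p = 0.00114) and with siDNMT1 (log2 change 1.02, SE 0.22, adjusted p = 0.00163), but not with decitabine (log2 change 0.46, SE 0.22, adjusted p = 0.259). Relative to control siRNA alone, CDKN1A rose 3.76-fold with decitabine (log2 change 1.92, SE 0.22, adjusted p = 2.52e-05) and 1.87-fold with siDNMT1 (log2 change 0.95, SE 0.22, adjusted p = 0.0109). The siDNMT1 call was lost without control siRNA replicates 0 or 1 (adjusted p up to 0.0621). Decitabine libraries also lay above siDNMT1 libraries (log2 change 0.98, SE 0.22, adjusted p = 0.025), a call lost without control siRNA plus siDNMT1 replicates 0, 1 or 2 or control siRNA plus decitabine replicate 0 (adjusted p up to 0.0974).

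BTG2, an antiproliferative regulator of mRNA decay, had 21.6, 22.6 and 20.1 FPKM in siCHD4, against 9.57, 9.87 and 15.01 FPKM in control siRNA (log2 change 0.87, SE 0.13, adjusted p = 0.000347). The groups did not overlap, and control siRNA replicate 2 was the highest of its group. It also rose with decitabine, at 19.00, 18.03 and 18.9 FPKM (log2 change 0.68, SE 0.13, adjusted p = 0.00182), and with siDNMT1, at 16.6, 14.6 and 16.5 FPKM (log2 change 0.46, SE 0.13, adjusted p = 0.0283), each against the same control siRNA values. The siDNMT1 libraries overlapped control siRNA replicate 2, and their call was lost without control siRNA plus siDNMT1 replicates 0 or 2 or control siRNA replicates 0 or 1 (adjusted p up to 0.137). With siDNMT1 in both groups it had 21.9, 20.01 and 17.7 FPKM after siCHD4, against the 16.6, 14.6 and 16.5 FPKM of the control, and with decitabine 23.3, 22.4 and 22.4 FPKM, against 19.00, 18.03 and 18.9 FPKM. These differences had no overlap of libraries but missed the threshold (adjusted p = 0.0596 and 0.252).

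PLK3, a stress-responsive polo-like kinase, was called higher with decitabine, at 6.20, 4.90 and 6.01 FPKM, against 3.21, 3.38 and 3.76 FPKM in control siRNA (log2 change 0.59, SE 0.14, adjusted p = 0.0106). It was also higher in siCHD4 plus siDNMT1, at 4.50, 5.45 and 4.59 FPKM, against 3.64, 2.37 and 4.05 FPKM in control siRNA plus siDNMT1 (log2 change 0.44, SE 0.14, adjusted p = 0.0179). Control siRNA plus siDNMT1 replicate 1 was the lowest of its group, and that last call was lost without siCHD4 plus siDNMT1 replicate 1 or control siRNA plus siDNMT1 replicate 1 (adjusted p up to 0.108). ZMAT3, an RNA-binding regulator of splicing, had 6.67, 9.48 and 9.68 FPKM with decitabine, against 4.50, 5.73 and 5.38 FPKM in control siRNA (log2 change 0.62, SE 0.18, adjusted p = 0.0299), with no overlap. The ZMAT3 call was lost without control siRNA plus decitabine replicates 1 or 2 or control siRNA replicates 0, 1 or 2 (adjusted p up to 0.107).

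CCNG1, cyclin G1, was called in 1 of the 5 comparisons. It had 71.6, 82.9 and 73.7 FPKM in siCHD4 plus siDNMT1, against 109.6, 113 and 99.96 FPKM in control siRNA plus siDNMT1 (log2 change -0.49, SE 0.17, adjusted p = 0.0239), with no overlap. The call was lost without siCHD4 plus siDNMT1 replicates 0 or 2 or control siRNA plus siDNMT1 replicates 0 or 1 (adjusted p up to 0.0775). GADD45A, a growth arrest and repair factor, averaged from 14.3 FPKM in siCHD4 plus siDNMT1 to 19.4 FPKM in siCHD4 plus decitabine, and PLK2, another polo-like kinase, from 144 FPKM in control siRNA to 197 FPKM in siCHD4 plus decitabine. Neither was called in these 5 comparisons, and both hold a site shown above. Control siRNA replicate 2 had 194 FPKM of PLK2, against 120.5 and 119 FPKM in replicates 0 and 1, and lay above every siCHD4 library, where PLK2 had 165, 154 and 166 FPKM.

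**Figure D3:**
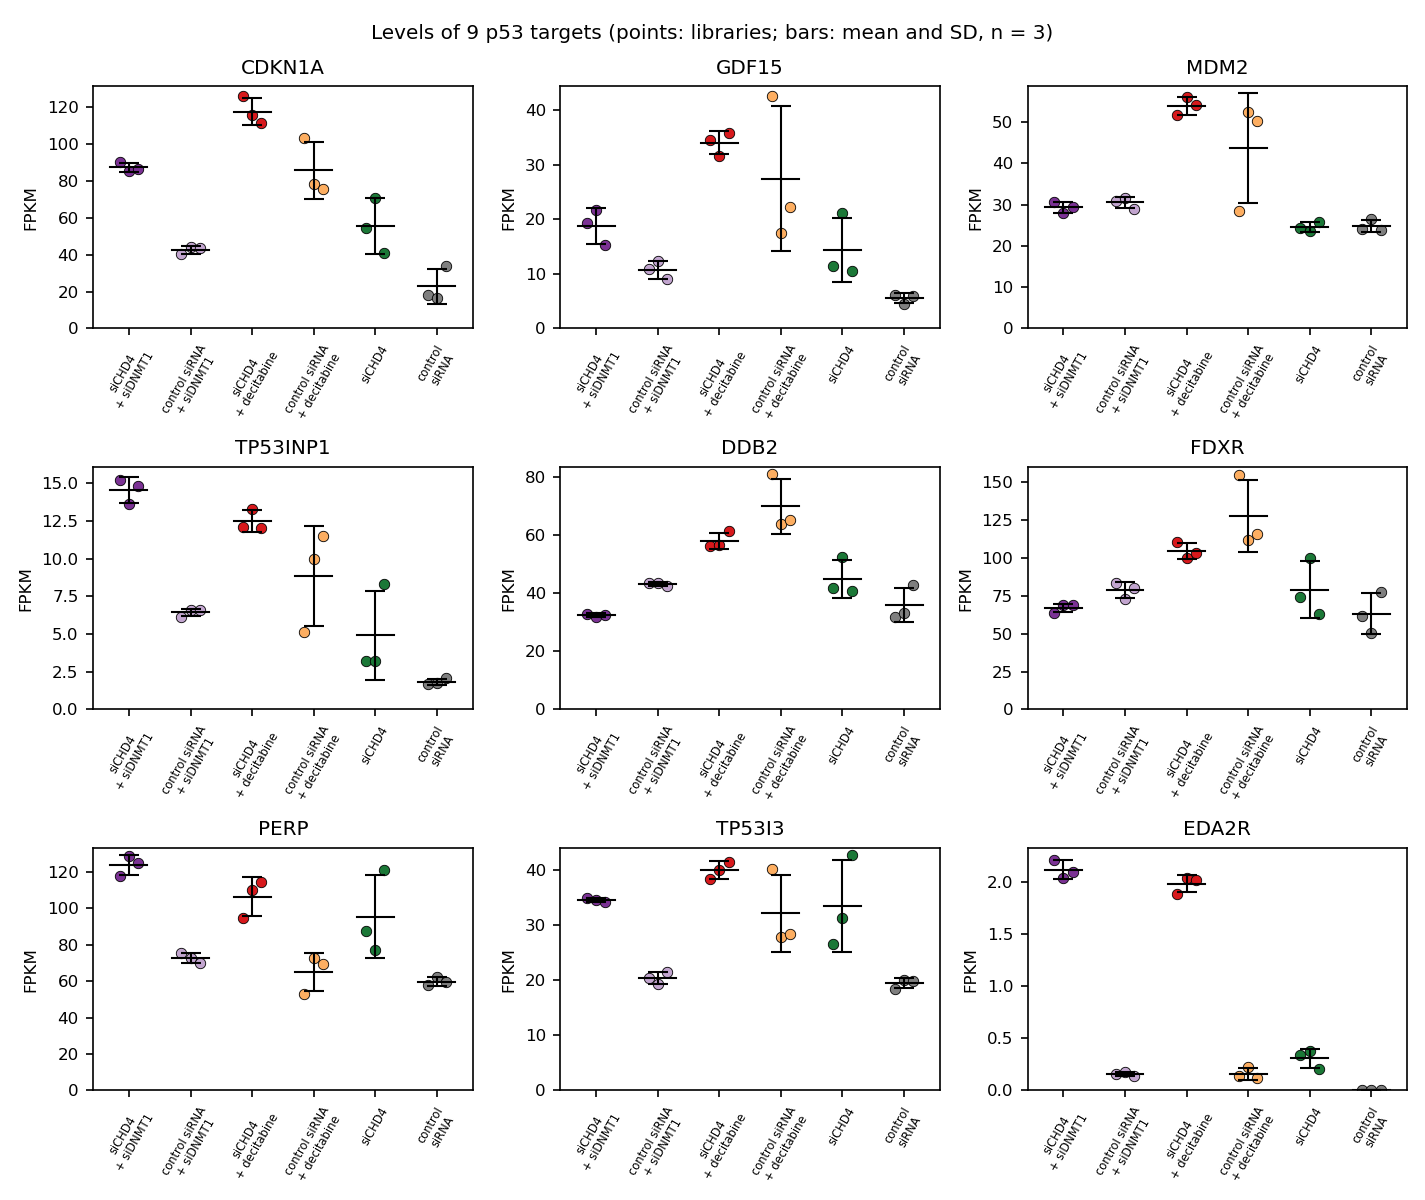
FPKM of 9 p53 targets in the 6 groups; points are libraries, and bars are the mean and SD of 3. EDA2R separates both siCHD4 combinations (1.88 to 2.21 FPKM) from the 4 other groups, whereas MDM2 is high in the decitabine groups with 1 library of control siRNA plus decitabine at 28.4 FPKM.

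The feedback genes moved with decitabine only in part. MDM2, the ubiquitin ligase of p53, had 28.4, 52.6 and 50.3 FPKM in control siRNA plus decitabine, against 24.2, 26.6 and 23.8 FPKM in control siRNA (log2 change 0.74, SE 0.16, adjusted p = 0.00455). All 3 decitabine libraries lay above the controls, and the shallow replicate 0 was far below the other pair. No siCHD4 change of MDM2 passed the threshold. The values were 30.7, 28.01 and 29.3 FPKM in siCHD4 plus siDNMT1, against 30.98, 31.7 and 29.1 FPKM in its control (adjusted p = 0.781). They were 51.6, 56.1 and 54.2 FPKM in siCHD4 plus decitabine, against the decitabine values above (adjusted p = 0.242). Given alone, siCHD4 left 24.4, 23.6 and 25.8 FPKM, with a 95% interval of the log2 change of -0.35 to 0.32. The interval for CDKN1A in the same comparison was 0.81 to 1.75, so that the 2 intervals did not meet.

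PPM1D, the phosphatase WIP1 that switches p53 signalling off, had 7.49, 9.53 and 11.1 FPKM with decitabine, against 6.73, 7.23 and 7.61 FPKM in control siRNA (log2 change 0.33, SE 0.10, adjusted p = 0.034). Decitabine replicate 0 lay within the control range, and the call was lost without control siRNA plus decitabine replicates 1 or 2 or control siRNA replicates 0 or 1 (adjusted p up to 0.143). FBXO22, a ubiquitin ligase subunit that acts on p53 complexes, was called lower in siCHD4 plus siDNMT1, at 18.6, 20.3 and 17.2 FPKM, against 27.3, 25.6 and 24.9 FPKM in control siRNA plus siDNMT1 (log2 change -0.46, SE 0.14, adjusted p = 0.0146). The groups did not overlap, and the call was lost without siCHD4 plus siDNMT1 replicate 2 or control siRNA plus siDNMT1 replicate 0 (adjusted p up to 0.061). FBXO22 was not called with decitabine, where it was at 27.4, 28.8 and 28.5 FPKM, against 29.5, 27.02 and 38.9 FPKM in control siRNA.

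Of the 9 genes of apoptosis inside the cell, 5 rose with decitabine, 1 with siDNMT1 and 3 with siCHD4 alone, whereas with siDNMT1 in both groups siCHD4 raised 2 and lowered 3. Of all tested genes 9.6% rose with decitabine, 6.94% with siDNMT1 and 9.58% with siCHD4 alone, and 24.8% rose and 24.6% fell with siCHD4 beside siDNMT1, so that the last counts lie near those of all genes. TP53INP1, which promotes autophagy and p53 phosphorylation, was called in 4 of the 5 comparisons. It had 15.2, 13.6 and 14.8 FPKM in siCHD4 plus siDNMT1, against 6.14, 6.57 and 6.59 FPKM in control siRNA plus siDNMT1 (log2 change 1.06, SE 0.27, adjusted p = 0.00409). It had 12.1, 13.3 and 12.1 FPKM in siCHD4 plus decitabine, against 5.14, 9.96 and 11.5 FPKM in control siRNA plus decitabine (log2 change 0.52, SE 0.27, adjusted p = 0.295). Given alone, siCHD4 left 3.22, 3.22 and 8.35 FPKM, against 1.68, 1.75 and 2.06 FPKM in control siRNA (log2 change 0.96, SE 0.27, adjusted p = 0.0199). No pair overlapped, siCHD4 replicate 2 was far above the other siCHD4 libraries, and the call of siCHD4 alone was lost without siCHD4 replicate 2 or control siRNA replicates 0 or 1 (adjusted p up to 0.0692), and with both number 2 libraries left out it had adjusted p = 0.0716. Against control siRNA, TP53INP1 was 4.85-fold with decitabine (log2 change 1.74, SE 0.27, adjusted p = 0.000349) and 3.52-fold with siDNMT1 (log2 change 1.40, SE 0.27, adjusted p = 0.00244), and both calls held with each single library left out.

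PERP, a desmosome-associated membrane protein with a role in apoptosis, was the member besides EDA2R that siCHD4 raised in all 3 backgrounds. It had 118, 129 and 124 FPKM in siCHD4 plus siDNMT1, against 75.5, 72.8 and 70.1 FPKM in control siRNA plus siDNMT1 (log2 change 0.76, SE 0.14, adjusted p = 0.000553). It had 94.4, 110.02 and 114 FPKM in siCHD4 plus decitabine, against 53.1, 72.5 and 69.4 FPKM in control siRNA plus decitabine (log2 change 0.71, SE 0.14, adjusted p = 0.00799). With siRNA alone it had 87.6, 77.3 and 121 FPKM after siCHD4, against 57.7, 62.3 and 59.2 FPKM after control siRNA (log2 change 0.64, SE 0.14, adjusted p = 0.00612). Every siCHD4 library lay above every control in each background, and the 3 calls held with each single library left out. Neither decitabine (0.11, adjusted p = 0.639) nor siDNMT1 (0.28, adjusted p = 0.231) moved it past the threshold relative to control siRNA.

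PHLDA3, an inhibitor of AKT signalling, rose with decitabine to 61.6, 52.5 and 55.3 FPKM, against 24.2, 25.8 and 28.02 FPKM in control siRNA (log2 change 1.09, SE 0.14, adjusted p = 9.83e-05), with no overlap. In control siRNA plus siDNMT1 it had 32.5, 31.8 and 38.96 FPKM, below every decitabine library (log2 change 0.70, SE 0.14, adjusted p = 0.0139 for decitabine against siDNMT1). BBC3 (PUMA), a BH3-only activator of mitochondrial apoptosis, had 8.34, 10.2 and 9.21 FPKM with decitabine, against 6.05, 5.26 and 4.85 FPKM (log2 change 0.68, SE 0.19, adjusted p = 0.0208). BAX, the pore-forming effector of that pathway, had 110.1, 61.6 and 74.2 FPKM, against 54.1, 51.7 and 61.3 FPKM (log2 change 0.51, SE 0.15, adjusted p = 0.0305). In the decitabine group BAX was led by replicate 0, and its groups were separated by less than 1 FPKM. AEN, an apoptosis-enhancing nuclease, had 49.7, 39.8 and 39.9 FPKM with decitabine, against 31.1, 28.3 and 33.5 FPKM (log2 change 0.46, SE 0.12, adjusted p = 0.0151). Of these 4, the PHLDA3 call (decitabine against control siRNA) survived the removal of any single library. The BBC3 call was lost without control siRNA plus decitabine replicate 1 or control siRNA replicates 1 or 2 (adjusted p up to 0.0669), the BAX call without control siRNA plus decitabine replicate 0 or control siRNA replicates 0 or 1 (adjusted p up to 0.108) and the AEN call without control siRNA plus decitabine replicate 0 or control siRNA replicate 1 (adjusted p up to 0.0715).

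PMAIP1 (NOXA), another BH3-only protein, was called in siCHD4 alone, at 18.7, 19.8 and 15.4 FPKM, against 14.5, 12.1 and 12.02 FPKM in control siRNA (log2 change 0.45, SE 0.13, adjusted p = 0.0293). The groups did not overlap, but the call was lost without siCHD4 replicates 0 or 1 or control siRNA replicates 1 or 2 (adjusted p up to 0.0988). It was not called with decitabine, where it had 9.26, 11.6 and 12.5 FPKM. In siCHD4 plus siDNMT1, 3 genes of this group were lower than in control siRNA plus siDNMT1. AEN had 24.1, 25.2 and 24.2 FPKM there, against 37.6, 35.3 and 34.6 FPKM (log2 change -0.53, SE 0.12, adjusted p = 0.00204). TRIAP1, which restrains apoptosome formation, had 44.5, 48.5 and 46.7 FPKM, against 76.5, 69.8 and 68.98 FPKM (log2 change -0.61, SE 0.12, adjusted p = 0.00101). RPS27L, a ribosomal protein relative that binds MDM2, had 75.4, 90.9 and 71.2 FPKM, against 104, 94.8 and 91.4 FPKM (log2 change -0.29, SE 0.10, adjusted p = 0.023). All 3 were separated between the groups, by less than 1 FPKM for RPS27L. The RPS27L call was lost without siCHD4 plus siDNMT1 replicates 0 or 2 or control siRNA plus siDNMT1 replicate 0 (adjusted p up to 0.116), and its values may share reads with the near-identical RPS27.

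The death receptors and decoys did not move together. EDA2R, a receptor of the ectodysplasin A2 ligand, was listed at 0 in all 3 control siRNA libraries, so that no fold change is given against them. It had 2.21, 2.04 and 2.09 FPKM in siCHD4 plus siDNMT1, against 0.160, 0.176 and 0.135 FPKM in control siRNA plus siDNMT1 (log2 change 1.43, SE 0.08, adjusted p = 1.28e-08). It had 1.88, 2.03 and 2.02 FPKM in siCHD4 plus decitabine, against 0.138, 0.226 and 0.119 FPKM in control siRNA plus decitabine (log2 change 1.36, SE 0.08, adjusted p = 1.3e-07). It had 0.339, 0.377 and 0.205 FPKM in siCHD4 alone, a difference of 0.38 on the log2(FPKM + 1) scale (adjusted p = 0.00507), a scale that understates the change of low genes. Among the 18 libraries EDA2R was above 1 FPKM only in those of both siCHD4 combinations. On that scale the siCHD4 change with siDNMT1 minus that alone was 1.04, adjusted p = 4.54e-05, and with decitabine minus alone 0.98, adjusted p = 0.000508. EDA2R entered the tested genes only through the siCHD4 combinations, so that these values are given as a description. Without a filter on low values both were called as well (adjusted p = 8.92e-07 and 1.79e-05), but with a pseudocount of 0.1 neither passed the threshold (1.11, adjusted p = 0.117, with siDNMT1 and 1.02, adjusted p = 0.226, with decitabine).

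TNFRSF10C, a decoy receptor of the ligand TRAIL that lacks an intracellular death domain, was listed at 0, 1.5e-05 and 0 FPKM in control siRNA. It had 2.90, 2.87 and 2.79 FPKM in siCHD4 plus siDNMT1, against 1.31, 0.807 and 1.02 FPKM in control siRNA plus siDNMT1 (log2 change 0.92, SE 0.15, adjusted p = 0.00016). It had 3.14, 2.50 and 4.10 FPKM in siCHD4 plus decitabine, against 2.07, 1.11 and 1.70 FPKM in control siRNA plus decitabine (log2 change 0.69, SE 0.15, adjusted p = 0.0125). In siCHD4 alone it reached 0.234, 0.225 and 0.0854 FPKM, which was not called (adjusted p = 0.275). The calls against control siRNA were adjusted p = 1.2e-05 with decitabine and 0.00022 with siDNMT1. TNFRSF10C passed the filter on low values only through the groups in which it is high, so that its tests are given as a description. The siCHD4 call with decitabine was lost without siCHD4 plus decitabine replicate 2 or control siRNA plus decitabine replicate 1 (adjusted p up to 0.064). The 4 TNFRSF10 genes are near relatives on chromosome 8, and reads may be shared between them, so that their single values are uncertain.

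TNFRSF10D, the other decoy with a truncated death domain, rose in 4 of the 5 comparisons. It had 14.5, 15.3 and 14.6 FPKM in siCHD4 plus siDNMT1, against 11.3, 11.6 and 10.5 FPKM in control siRNA plus siDNMT1 (log2 change 0.38, SE 0.09, adjusted p = 0.00401). It had 8.90, 9.60 and 10.7 FPKM in siCHD4, against 7.22, 7.07 and 8.44 FPKM in control siRNA (log2 change 0.32, SE 0.09, adjusted p = 0.0272). With decitabine it had 11.6, 11.8 and 10.1 FPKM, above the same control siRNA values (log2 change 0.51, SE 0.09, adjusted p = 0.00192), and with siDNMT1 the change from them was 0.50, adjusted p = 0.0024. The call of siCHD4 alone was lost without siCHD4 replicate 2 or control siRNA replicates 0 or 1 (adjusted p up to 0.106).

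TNFRSF10B (DR5), a signalling TRAIL receptor, changed little in size. It had 44.4, 48.5 and 48.7 FPKM with decitabine, against 38.6, 36.9 and 38.4 FPKM in control siRNA (log2 change 0.31, SE 0.06, adjusted p = 0.0043). It had 41.3, 46.1 and 43.99 FPKM in siCHD4 (log2 change 0.20, SE 0.06, adjusted p = 0.0409, against the same controls). In siCHD4 plus siDNMT1 it had 48.3, 48.4 and 50.6 FPKM, against 44.7, 44.02 and 41.7 FPKM in control siRNA plus siDNMT1 (log2 change 0.17, SE 0.06, adjusted p = 0.0381). None of these pairs overlapped, but the call of siCHD4 alone was lost without siCHD4 replicates 1 or 2 or control siRNA replicates 0, 1 or 2 (adjusted p up to 0.135), and with both number 2 libraries left out it had adjusted p = 0.0768. The call with siDNMT1 was lost without any 1 of the 6 libraries (adjusted p up to 0.132).

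TNFRSF10A (DR4), the other signalling TRAIL receptor, went the opposite way. It had 19.4, 19.5 and 9.83 FPKM in siCHD4, against 26.3, 24.9 and 25.7 FPKM in control siRNA (log2 change -0.69, SE 0.18, adjusted p = 0.0131). It had 12.9, 14.6 and 14.1 FPKM in siCHD4 plus siDNMT1, against 18.9, 19.96 and 19.97 FPKM in control siRNA plus siDNMT1 (log2 change -0.47, SE 0.18, adjusted p = 0.0365). The groups did not overlap, siCHD4 replicate 2 was the lowest of its group, and the call with siDNMT1 was lost without any 1 of the 6 libraries (adjusted p up to 0.109). FAS, the receptor of FAS ligand, rose with decitabine to 8.78, 12.3 and 13.5 FPKM, against 7.30, 8.01 and 9.07 FPKM in control siRNA (log2 change 0.44, SE 0.12, adjusted p = 0.0188). Decitabine replicate 0 lay within the control range, and the FAS call was lost without control siRNA plus decitabine replicates 1 or 2 or control siRNA replicates 0 or 1 (adjusted p up to 0.0832).

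Among the DNA repair genes, DDB2, the damage sensor of global nucleotide excision repair, rose with decitabine and fell with siCHD4 when siDNMT1 was present. It had 81.05, 64.1 and 65.2 FPKM in control siRNA plus decitabine, against 31.97, 33.2 and 42.9 FPKM in control siRNA (log2 change 0.95, SE 0.12, adjusted p = 5.78e-05), with no overlap. It had 33.02, 31.9 and 32.7 FPKM in siCHD4 plus siDNMT1, against 43.6, 43.6 and 42.6 FPKM in control siRNA plus siDNMT1 (log2 change -0.40, SE 0.12, adjusted p = 0.0114). Given alone, siCHD4 left 41.9, 52.6 and 40.7 FPKM, with a change of 0.32 that was not called (adjusted p = 0.071). The siCHD4 changes with siDNMT1 and alone differed (log2 change -0.72, SE 0.17, adjusted p = 0.0238), a call lost without siCHD4 plus siDNMT1 replicates 0 or 2 or control siRNA plus siDNMT1 replicates 0 or 1 or siCHD4 replicate 1 or control siRNA replicates 0 or 1 (adjusted p up to 0.0721). Decitabine libraries also exceeded siDNMT1 libraries (log2 change 0.68, SE 0.12, adjusted p = 0.0055).

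XPC, its partner in damage recognition, had 30.2, 37.6 and 39.5 FPKM with decitabine (log2 change 0.76, SE 0.13, adjusted p = 0.000947) and 30.1, 29.8 and 30.5 FPKM with siDNMT1 (log2 change 0.53, SE 0.13, adjusted p = 0.0152), against 20.3, 22.1 and 19.6 FPKM in control siRNA. Both groups lay wholly above the control; the siDNMT1 call was lost without control siRNA plus siDNMT1 replicate 2 or control siRNA replicates 0 or 2 (adjusted p up to 0.0568). POLH, the translesion polymerase eta, had 13.3, 12.4 and 12.3 FPKM with decitabine, against 7.54, 7.74 and 11.5 FPKM in control siRNA (log2 change 0.48, SE 0.12, adjusted p = 0.0155). Control siRNA replicate 2 was well above the other controls, and the call was lost without control siRNA replicates 0 or 1 (adjusted p up to 0.0777). RRM2B, the p53-inducible subunit of ribonucleotide reductase, had 28.7, 31.7 and 33.3 FPKM in siCHD4 plus decitabine, against 15.9, 23.6 and 23.3 FPKM in control siRNA plus decitabine (log2 change 0.57, SE 0.14, adjusted p = 0.0282). It had 18.3, 20.3 and 27.3 FPKM in siCHD4 (log2 change 0.47, SE 0.14, adjusted p = 0.0279) and 25.00, 24.8 and 23.4 FPKM in control siRNA plus siDNMT1 (log2 change 0.64, SE 0.14, adjusted p = 0.00738), each against 15.5, 15.2 and 15.3 FPKM in control siRNA. No such pair overlapped. The call with decitabine was lost without siCHD4 plus decitabine replicates 0, 1 or 2 or control siRNA plus decitabine replicate 0 (adjusted p up to 0.105) and that of siCHD4 alone without siCHD4 replicate 2 or control siRNA replicates 0, 1 or 2 (adjusted p up to 0.111), and with both number 2 libraries left out it had adjusted p = 0.153.

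Of the 9 genes of metabolism, redox control and secretion, 8 rose with decitabine and 0 fell. Of all members 68.4% rose with decitabine and 0% fell, and of all tested genes 9.6% rose and 8.63% fell. GDF15, a secreted stress cytokine, had the largest change of all members there. It had 42.6, 17.6 and 22.3 FPKM in control siRNA plus decitabine, against 6.20, 4.54 and 5.97 FPKM in control siRNA (log2 change 2.03, SE 0.27, adjusted p = 0.00012). Each decitabine library was above each control, and replicate 0 was well above the other pair. In siCHD4 alone it had 11.5, 21.2 and 10.6 FPKM (log2 change 1.18, SE 0.27, adjusted p = 0.00798, against the same controls). In siCHD4 plus siDNMT1 it had 19.4, 21.8 and 15.3 FPKM, against 10.9, 12.3 and 9.11 FPKM in control siRNA plus siDNMT1 (log2 change 0.75, SE 0.27, adjusted p = 0.0336). With decitabine in both groups siCHD4 left 34.7, 31.7 and 35.9 FPKM, within the spread of the control (adjusted p = 0.433). The call with siDNMT1 was lost without siCHD4 plus siDNMT1 replicates 0 or 1 or control siRNA plus siDNMT1 replicates 0 or 2 (adjusted p up to 0.108).

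SESN2, a stress-induced inhibitor of mTORC1 signalling, rose in 4 of the 5 comparisons. It had 8.24, 6.73 and 7.30 FPKM in siCHD4 plus siDNMT1, against 4.49, 4.09 and 4.85 FPKM in control siRNA plus siDNMT1 (log2 change 0.62, SE 0.09, adjusted p = 6.14e-05). It had 7.72, 7.80 and 6.61 FPKM in siCHD4 plus decitabine, against 6.69, 6.67 and 6.83 FPKM in control siRNA plus decitabine (log2 change 0.11, SE 0.09, adjusted p = 0.49). With siRNA alone it had 4.38, 4.49 and 4.59 FPKM after siCHD4, against 2.89, 2.85 and 3.24 FPKM after control siRNA (log2 change 0.46, SE 0.09, adjusted p = 0.00239). The groups overlapped with decitabine and not in the other backgrounds. The siCHD4 change was larger with siDNMT1 than with decitabine (difference 0.51, adjusted p = 0.0264), a call lost without siCHD4 plus siDNMT1 replicates 0 or 2 or control siRNA plus siDNMT1 replicates 0 or 1 or siCHD4 plus decitabine replicate 2 (adjusted p up to 0.0809). Relative to control siRNA alone, SESN2 also rose with decitabine (0.95, adjusted p = 2.48e-06) and with siDNMT1 (0.45, adjusted p = 0.0029), and all calls of SESN2 in the 5 comparisons held with each single library left out.

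TP53I3 (PIG3), a quinone oxidoreductase, had 34.9, 34.5 and 34.3 FPKM in siCHD4 plus siDNMT1, against 20.5, 19.4 and 21.5 FPKM in control siRNA plus siDNMT1 (log2 change 0.73, SE 0.15, adjusted p = 0.000885). It had 26.5, 31.2 and 42.7 FPKM in siCHD4, against 18.4, 20.01 and 19.8 FPKM in control siRNA (log2 change 0.73, SE 0.15, adjusted p = 0.00313). With decitabine it had 40.2, 27.9 and 28.4 FPKM (log2 change 0.68, SE 0.15, adjusted p = 0.00479, against the same controls), whereas siDNMT1 left it at 20.5, 19.4 and 21.5 FPKM (0.07, adjusted p = 0.811). The libraries of the 3 called pairs did not overlap.

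FDXR, the ferredoxin reductase of mitochondria, had 155, 112 and 116 FPKM with decitabine, against 61.9, 50.3 and 77.7 FPKM in control siRNA (log2 change 1.01, SE 0.17, adjusted p = 0.000787). It had 83.7, 73.1 and 79.8 FPKM in control siRNA plus siDNMT1, below every decitabine library (log2 change 0.67, SE 0.17, adjusted p = 0.0379 for decitabine against siDNMT1). SESN1, a second sestrin, had 10.7, 14.4 and 15.04 FPKM with decitabine (log2 change 0.63, SE 0.13, adjusted p = 0.00324), 12.6, 11.9 and 11.8 FPKM with siDNMT1 (log2 change 0.51, SE 0.13, adjusted p = 0.0169) and 10.9, 10.5 and 12.5 FPKM with siCHD4 (log2 change 0.42, SE 0.13, adjusted p = 0.0321), against 7.45, 8.33 and 8.92 FPKM in control siRNA. All 3 groups lay above the control for SESN1, as did decitabine for FDXR. The SESN1 call with siDNMT1 was lost without control siRNA plus siDNMT1 replicate 0 or control siRNA replicate 0 (adjusted p up to 0.0798) and that of siCHD4 alone without siCHD4 replicate 2 or control siRNA replicates 0 or 1 (adjusted p up to 0.121), and with both number 2 libraries left out it had adjusted p = 0.0864.

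TIGAR, a fructose bisphosphatase that slows glycolysis, had 7.81, 7.53 and 7.31 FPKM with siDNMT1 (log2 change 0.58, SE 0.11, adjusted p = 0.00311) and 5.15, 7.51 and 7.71 FPKM with decitabine (log2 change 0.43, SE 0.11, adjusted p = 0.017), against 4.52, 4.75 and 4.87 FPKM in control siRNA. ACER2, an alkaline ceramidase, had 11.6, 13.6 and 12.3 FPKM with siDNMT1 (log2 change 0.69, SE 0.17, adjusted p = 0.0159) and 9.58, 14.5 and 14.8 FPKM with decitabine (log2 change 0.71, SE 0.17, adjusted p = 0.0097), against 7.51, 7.60 and 7.00 FPKM. No library of these treated groups lay within the control range. The TIGAR call with decitabine was lost without control siRNA plus decitabine replicates 1 or 2 or control siRNA replicates 0 or 1 (adjusted p up to 0.0732), and the ACER2 call with siDNMT1 without control siRNA plus siDNMT1 replicate 1 or control siRNA replicate 2 (adjusted p up to 0.0705). FUCA1, a lysosomal fucosidase, was not called in the 5 comparisons and averaged from 26.2 FPKM in control siRNA to 39.4 FPKM in siCHD4 plus siDNMT1.

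SPATA18, which takes part in mitochondrial quality control, rose with decitabine and fell with siCHD4. It had 1.21, 0.998 and 1.53 FPKM in siCHD4 plus siDNMT1, against 2.44, 2.71 and 2.90 FPKM in control siRNA plus siDNMT1 (log2 change -0.72, SE 0.11, adjusted p = 0.000144). It had 1.26, 1.13 and 1.29 FPKM in siCHD4, against 2.11, 1.69 and 2.08 FPKM in control siRNA (log2 change -0.41, SE 0.11, adjusted p = 0.0205). With decitabine it had 3.58, 2.96 and 3.72 FPKM after siCHD4, against 3.15, 4.02 and 3.95 FPKM after control siRNA, which was not called (-0.09, adjusted p = 0.675). The decitabine change from control siRNA alone was 0.67, adjusted p = 0.000862. The siCHD4 changes with siDNMT1 and with decitabine differed (-0.63, adjusted p = 0.0299), a call lost without siCHD4 plus siDNMT1 replicate 0 or control siRNA plus siDNMT1 replicates 0, 1 or 2 or siCHD4 plus decitabine replicates 0 or 2 or control siRNA plus decitabine replicate 0 (adjusted p up to 0.0872). The call of siCHD4 alone was lost without siCHD4 replicate 1 or control siRNA replicates 0 or 2 (adjusted p up to 0.0773), and with both number 2 libraries left out it had adjusted p = 0.0702.

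**Figure D4:**
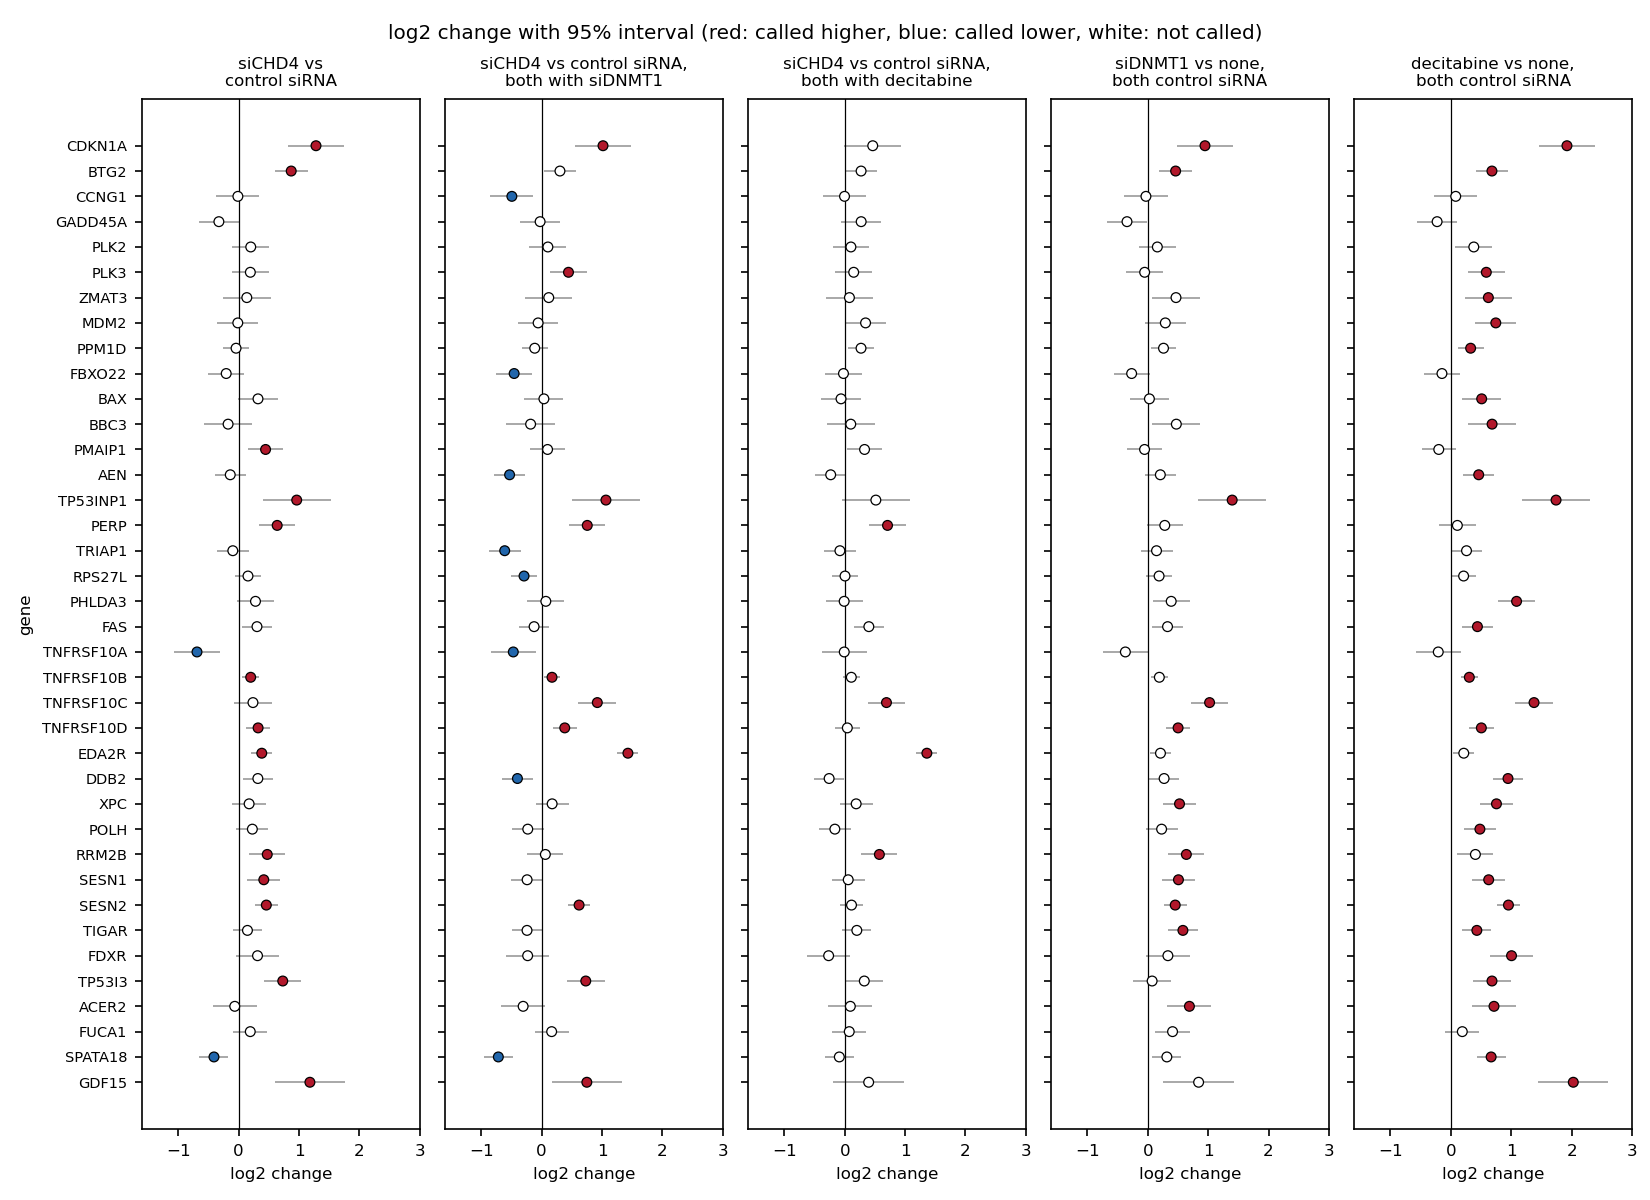
log2 change of each p53 target, on the log2(FPKM + 1) scale, with its 95% interval in 5 comparisons; red points were called higher, blue points lower and white points neither. Decitabine shows 26 red points and no blue one, and siCHD4 shows 8 blue points when both groups had siDNMT1.

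Tests of the difference between siCHD4 effects called few members. In the difference with siDNMT1 minus alone, 29 members lay below 0 and 9 above. Its median was -0.23 in the members, against -0.01 over all tested genes. With quantile normalization the members' median was -0.09. This shift of the members as a set was not tested. With siDNMT1 minus alone, 1 member was higher (EDA2R, 1.04, which passed the filter only through its high groups) and 1 lower (DDB2, -0.72), against 2.83% and 1.29% of all tested genes. With decitabine minus alone, 1 was higher (EDA2R again, 0.98) and 0 lower, against 0.773% and 0.383%. With siDNMT1 minus with decitabine, 1 was higher (SESN2, 0.51) and 1 lower (SPATA18, -0.63), against 4.16% and 4.24%. The decrease of CHD4 itself with siCHD4 was also larger beside siDNMT1 than beside decitabine (difference -0.77, adjusted p = 0.0289), and the part of this in the results for SESN2 and SPATA18 was not tested. For CDKN1A the siCHD4 change with decitabine minus that alone was -0.82, with a 95% interval of -1.48 to -0.15 and adjusted p = 0.236. Without both number 2 libraries 11 members differed between siDNMT1 and alone (1 higher and 10 lower) and 7 between decitabine and alone (2 higher and 5 lower). Of all 12809 tested genes, 1166 were then higher and 1503 lower for the first difference, against 363 and 165 with every library. For the second difference 277 were higher and 253 lower, against 99 and 49, so that calls rose over all genes as well. The members called were mostly lower, whereas the calls over all genes were more evenly split.

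Regulators of p53 were called in each direction in several comparisons. MDM4 averaged 5.97 to 7.21 FPKM over the groups and was not called in any comparison. Of 23 tested regulators of p53 from a list of 24, decitabine raised 0 and lowered 2, ATR (-0.52) and SETD7 (-0.31), a damage-signalling kinase and a lysine methyltransferase. siDNMT1 raised 2, ATM (0.37), another damage-signalling kinase, and CDKN2A (0.89), which encodes the MDM2 inhibitor ARF and the kinase inhibitor p16. siCHD4 alone raised 3 and lowered 2, with HIPK2 (0.88), a kinase of p53, and TP73 (0.36), a relative of p53, among those higher, and CHEK2 (-0.48) and TP53BP2 (-0.29) lower. With siDNMT1 in both groups siCHD4 raised 7, among them HIPK2 (1.38) and the acetyltransferase CREBBP (1.14), and lowered 8, among them RPL5 (-0.74), a ribosomal protein that binds MDM2, and CHEK2 (-0.92). With decitabine in both groups it called 0 of the 23. Relative to control siRNA alone, siCHD4 plus siDNMT1 had 6 higher and 8 lower and siCHD4 plus decitabine 5 higher and 5 lower. The shares of all tested genes were 9.58% higher and 9.71% lower for siCHD4 alone, 24.8% and 24.6% beside siDNMT1, and 29.3% and 29.8%, and 18% and 16.9%, for the combinations against control siRNA, so that these counts lie near those of all genes. They were 9.6% and 8.63% for decitabine, 6.94% and 4.4% for siDNMT1, and 3.26% and 1.31% for siCHD4 beside decitabine. None of the counts is a result about the regulators.

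A second list of 41 p53 targets outside the 38, of which 40 were tested, had 15 genes higher and 1 lower with decitabine and 4 higher and 2 lower with siDNMT1. Of all tested genes 9.6% were higher and 8.63% lower with decitabine and 6.94% and 4.4% with siDNMT1. The median log2 change was 0.25 with decitabine and 0.08 with siDNMT1. Among those higher with decitabine were PGPEP1 (0.56), a peptidase, IER5 (0.62), an immediate early gene, FAM210B (0.84), a mitochondrial protein, and SLC12A4 (0.58), a potassium chloride cotransporter. siCHD4 alone raised 6 and lowered 3, with siDNMT1 it raised 12 and lowered 14, and with decitabine it raised 3 and lowered 1. These counts are to be read against 9.58% and 9.71% of all tested genes alone, 24.8% and 24.6% with siDNMT1, and 3.26% and 1.31% with decitabine, and none of them is a result about the list. IGFBP3, a binding protein of insulin-like growth factors, was higher with siCHD4 in all 3 backgrounds, but passed the filter only through the groups in which it is high (log2 changes 2.36 with siDNMT1, 1.46 with decitabine and 1.65 alone). PGPEP1 was higher with siCHD4 in all 3 backgrounds as well (0.67 with siDNMT1, 0.57 with decitabine and 0.73 alone) and also higher with siDNMT1 (0.42), as was FAM210B (0.74). KITLG, the ligand of the receptor KIT, was lower with siDNMT1 (-0.88), as was the carboxylesterase CES2 (-0.38), and CMBL, a hydrolase, was higher with siCHD4 alone (0.64). IGFBP3 averaged 5.02 FPKM in siCHD4 plus siDNMT1, against 0.177 FPKM in its control. IER5 was lower with siCHD4 in all 3 backgrounds (-1.52, -0.82 and -1.18 in the same order).

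Paralogs of the members, which share sequence but are not counted as p53 targets here, included called genes too. Of 23 tested, decitabine raised 3 and lowered 4 and siDNMT1 raised 3 and lowered 2, beside 9.6% and 8.63%, and 6.94% and 4.4%, of all tested genes. siCHD4 raised 5 and lowered 2 alone, 8 and 4 beside siDNMT1, and 1 and 0 beside decitabine, where 9.58% and 9.71%, 24.8% and 24.6%, and 3.26% and 1.31% of all tested genes were called. CDKN1C (p57), a relative of p21, averaged 20.2 FPKM with decitabine and 10.8 FPKM with siDNMT1, against 3.11 FPKM in control siRNA (log2 changes 2.38 and 1.54). SESN3, the remaining sestrin, averaged 7.94 FPKM in siCHD4, against 1.20 FPKM in control siRNA (log2 change 2.04, SE 0.17, adjusted p = 2.02e-06), and also rose with siCHD4 beside siDNMT1 (1.29) and decitabine (1.17). It was higher with siDNMT1 (0.90) and with decitabine (0.90) relative to control siRNA. RRM2, the cell cycle-bound subunit of ribonucleotide reductase, was lower with siCHD4 alone (-0.54) and beside siDNMT1 (-0.73), where RRM2B was not called (0.06). BCL2L1, an inhibitor of BAX, was lower with decitabine (-0.32), siDNMT1 (-0.43) and siCHD4 alone (-0.52), while MCL1, another inhibitor of this kind, was higher with siCHD4 alone (0.55). TP53INP2, a relative of TP53INP1, was higher with siCHD4 beside siDNMT1 (1.59) and BTG3, a relative of BTG2, lower (-0.57). CCNG2, cyclin G2, was higher with siDNMT1 (1.04), and FUCA2, a fucosidase, lower with decitabine (-0.43).

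Cell cycle genes of the pathway in which p21 acts had more lower than higher calls. The list includes cyclins, their kinases, E2F factors and the retinoblastoma genes RB1, RBL1 and RBL2 themselves. Of 18 tested, siCHD4 beside siDNMT1 lowered 11 and raised 1, siCHD4 alone lowered 4 and raised 1, and siCHD4 beside decitabine lowered 2 and raised 1. Of all tested genes 24.6% were lower and 24.8% higher beside siDNMT1, 9.71% and 9.58% alone, and 1.31% and 3.26% beside decitabine. Decitabine lowered 6 and raised 1, and siDNMT1 lowered 2 and raised 0, where 8.63% and 4.4% of all tested genes were lower. CCNA2, cyclin A2, was lower with siCHD4 beside siDNMT1 (-0.52) and beside decitabine (-0.32), and with decitabine (-0.51) and siDNMT1 (-0.38) relative to control siRNA. CCNE2, cyclin E2, was lower with siCHD4 beside siDNMT1 (-0.89), with siCHD4 alone (-0.60) and with decitabine (-0.69). PCNA, the sliding clamp of DNA polymerases and itself a p53 target, was lower with siCHD4 alone (-0.40) and beside siDNMT1 (-0.91). CCND1, cyclin D1, had the largest change of this list with siCHD4 alone (-1.02), where the transcription factor E2F2 was the gene called higher (0.34). CDK6, a kinase partner of the D cyclins, was higher with siCHD4 beside decitabine (0.66) and lower with decitabine relative to control siRNA (-0.49). The phosphatase CDC25C was lower with siCHD4 beside decitabine (-0.50), and RBL1, a retinoblastoma relative, lower beside siDNMT1 (-0.54). The kinase CDK2 was lower with siDNMT1 (-0.42) and with decitabine (-0.34).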

How the data were processed

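RNA of 18 SW48 libraries was prepared with a stranded total RNA kit after ribosomal RNA depletion, per the labels' protocols. TopHat2 2.0.9, Cuffdiff 2.1.1 and the genome build hg19 are named in the submitters' processing notes. The authors deposited 1 table of FPKM values per gene and library; for the gene annotation and any scaling of libraries to each other, the method is not given in the sources used here. No counts are in it, so the depth is unknown and no counting interval is given. Of 23599 rows, 28 (0.119%) named a date instead of a gene and were dropped.

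Genes at 1 FPKM or more in at least 3 libraries (12809) were tested as log2(FPKM + 1) with limma 3.58.1 in R 4.3.3, with a trended variance and 1 fit over the 6 groups (12 residual degrees of freedom). P-values were Benjamini-Hochberg adjusted over all tested genes, and a gene was called at an adjusted p below 0.05. The fit was tested on simulated data. A fold of means is the ratio of mean FPKM. The members and all gene lists were chosen with earlier results of these data known, and decitabine against siDNMT1 was added after the data were seen. Members called in at least 1 of the 3 siCHD4 comparisons or the 2 single-treatment comparisons were to be given by library, the others by range; of other lists, the 4 called genes of smallest p per comparison. These values are given for the groups compared, and all libraries are in the plots. Some genes of these other lists are not reported here.

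Same-numbered libraries of different groups were not taken as pairs: over 45 such pairs the residuals correlated at -0.31 to 0.126, with 5 pairs over 0.1, and no label ties the numbers. Alternatives were a pseudocount of 0.1, a filter at 5 FPKM, other scalings, library weights, a replicate block, a fit on the compared groups only, and each library or both number 2 libraries left out. Start sites for the p53 element search came from a GENCODE annotation on GRCh37, which is the sequence build of hg19.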

Additional observations from a re-analysis of the deposited data

Results flagged for a closer look

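In 5 instances the test of a difference between siCHD4 effects passed the threshold. The siCHD4 change of EDA2R was larger with siDNMT1 than alone by 1.04 and larger with decitabine than alone by 0.98 on the log2(FPKM + 1) scale. EDA2R passed the filter on low values only through the siCHD4 combinations, so that both are given as a description. Without a filter both were called (adjusted p = 8.92e-07 and 1.79e-05), and with a pseudocount of 0.1 both calls were lost (0.117 and 0.226). DDB2 differed by -0.72 between the siCHD4 change with siDNMT1 (-0.40) and that alone (0.32), which lay on opposite sides of 0. The siCHD4 change of SESN2 was larger with siDNMT1 than with decitabine by 0.51, and that of SPATA18 was lower by -0.63. No explanation of these differences was tested.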

How the results depend on the processing

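Among single-gene values called in the fit on all 6 groups, 1859 alternative values stayed called in the same direction and 234 lost the call; among those not called, 4418 stayed so, 255 became called in the same direction and 3 turned direction and became called. Those 3 were the difference of the siCHD4 changes with siDNMT1 and alone under library weights, at 0.55 for BBC3, 0.25 for TP53I3 and 0.23 for FUCA1.

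Leaving out each library in turn, the numbers of members called higher and lower ranged as follows. siCHD4 alone gave 7 to 13 higher and 1 to 3 lower, siCHD4 beside siDNMT1 8 to 11 and 4 to 7, and siCHD4 beside decitabine 2 to 6 higher. siDNMT1 gave 7 to 12 higher, decitabine 18 to 25, and decitabine against siDNMT1 2 to 9. siCHD4 plus siDNMT1 against control siRNA gave 15 to 19 higher and 5 to 7 lower, and siCHD4 plus decitabine against it 26 to 29 higher. The differences between siCHD4 effects ranged from 1 to 9 (siDNMT1 minus alone, 9 without siCHD4 replicate 2), 1 to 4 (decitabine minus alone) and 0 to 4 (siDNMT1 minus decitabine). Without both number 2 libraries siDNMT1 had 18 higher and 1 lower, and the first 2 differences numbered 11 and 7. Of all tested genes, 1089 were higher and 1468 lower for the first difference without siCHD4 replicate 2. Without both number 2 libraries 1166 were higher and 1503 lower for it, 277 and 253 for the second difference, and 1008 and 804 for siDNMT1. With each library left out in turn, siCHD4 alone gave 762 to 1295 of all tested genes higher and 722 to 1322 lower. siCHD4 beside siDNMT1 gave 2543 to 2981 and 2479 to 2940, and beside decitabine 242 to 480 higher. siDNMT1 gave 624 to 727 higher, decitabine 762 to 1169, and decitabine against siDNMT1 53 to 354. Against control siRNA, siCHD4 plus siDNMT1 gave 3261 to 3558 higher and 3291 to 3625 lower, and siCHD4 plus decitabine 1678 to 2206 higher.

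Library weights gave 23 higher and 5 lower for siCHD4 alone, 14 lower for siCHD4 beside siDNMT1 and 9 higher and 2 lower beside decitabine. They gave 29 higher and 2 lower for siDNMT1, 22 and 1 for decitabine against siDNMT1, and 23, 12 and 13 for the 3 differences. Of all 12809 tested genes, weights gave 4720 lower for siCHD4 beside siDNMT1, and 1870 higher and 1837 lower beside decitabine. They gave 2077 higher and 2280 lower for siDNMT1, and 1809 and 2018 for decitabine against siDNMT1. The 3 differences had 2944 and 3200, 1395 and 1018, and 2541 and 3085, so that calls rose over all genes. A fit on the compared groups only gave 2 and 0 for siCHD4 alone, 13 lower beside siDNMT1, 1 higher beside decitabine, 19 and 2 for siDNMT1, 12 higher for decitabine, 0 for decitabine against siDNMT1, and 4 and 6 for the differences with siDNMT1 minus alone and minus decitabine. Of all tested genes, such fits gave 4292 lower beside siDNMT1 and 131 higher beside decitabine. They gave 1287 higher and 1487 lower for siDNMT1, 552 higher for decitabine, and 9 and 10 for decitabine against siDNMT1. The differences with siDNMT1 minus alone and minus decitabine had 366 and 143, and 904 and 1002. A filter at 5 FPKM gave 1 lower for siCHD4 alone, 2 higher beside decitabine, and 1, 0 and 1 for the differences. A pseudocount of 0.1 gave 1 and 0 for the first 2 differences. Quantile normalization gave 3 lower for siCHD4 plus siDNMT1 against control siRNA and 5 for the last difference. Of all tested genes it gave 4029 lower for the former, and 755 higher and 803 lower for the latter. All tested genes shifted too: for siCHD4 alone 1227 were higher and 1244 lower in the fit on all 6 groups, 2818 and 3086 with library weights, and 272 and 242 in the fit on the compared groups only. The cause of these shifts was not tested.

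Same-numbered libraries were not paired, and a replicate block kept every number of members called higher or lower within 1.5 times, except that 2 members instead of 1 were lower for the difference with siDNMT1 minus alone. It gave 12 higher and 2 lower for siCHD4 alone, 10 and 8 beside siDNMT1, 4 higher beside decitabine, 11 for siDNMT1, 27 for decitabine, 7 for decitabine against siDNMT1, and 3, 1 and 2 for the differences.

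With 3 libraries a group and no counts, the precision of low genes such as EDA2R and TNFRSF10C cannot be given.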
